A study of Mus musculus with 18 samples.

Results

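The proteins ezrin, radixin and moesin (ERM) and the proteins that resemble, scaffold, phosphorylate or anchor them were followed at the RNA level in mouse embryonic stem cells (ESCs) with and without an induced active ezrin. The genes are a list of 10 chosen by name, with earlier results of these data known: Ezr, Rdx and Msn (ezrin, radixin and moesin), Nf2 (merlin), Slc9a3r1 and Slc9a3r2 (the scaffolds NHERF1 and NHERF2), Stk10 and Slk (the ERM kinases LOK and SLK), and Cd44 and Pdpn (the membrane proteins CD44 and podoplanin). All 10 were found by Ensembl ID among the 53801 genes of the count table, and all 10 were among the 18469 genes that passed the filter on low counts and were tested.

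Polyadenylated RNA was sequenced with paired-end reads in 18 libraries, 3 in each of 6 groups. WT was the parental line E14 (ES-E14TG2a), and iEZR_CA was the same line carrying a doxycycline-inducible, constitutively active ezrin with an IRES mCherry reporter, placed in the genome with PiggyBac transposons. Each line was taken in the naive medium 2i+LIF (ESC, 0 h) and after 24 h (T24) or 48 h (T48) in N2B27, the medium without the 2 inhibitors and LIF in which cells leave the naive state, on gelatin in all 6 groups. Per the labels doxycycline was added overnight before exit, about 16 h, and to iEZR_CA only, so the transgene, the drug and the line cannot be told apart. The sources used here do not say how many iEZR_CA clones there were, or whether the ezrin sequence was mouse or another species. The 3 libraries of a group are described in the study as independent biological replicates. The Ezr count can hold reads of both the transgene and the cell's own gene.

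The libraries held between 10940752 and 33276622 reads on genes. The library names, read as plate wells, place the WT libraries in column 11 and well A12. They place the iEZR_CA libraries in column 12 and wells G9 and H9. On that reading line and plate column can hardly be told apart, as A12 is the only WT library in a column with iEZR_CA libraries. The 6 pluripotent cell markers examined (Pou5f1, Nanog, Sox2, Sall4, Lin28a and Utf1) were above 3 counts in all 18 libraries, and their summed level ran from 3350 to 4440 TPM (read count per exon length, scaled to the same total in every library) in WT and from 3087 to 3738 TPM in iEZR_CA. The 10 primitive endoderm markers summed to 37.8 to 39.3 TPM in WT ESCs and to 70.2 to 77.4 TPM in iEZR_CA ESCs, led by Lama1 and Dab2, while Sox7 had at most 9 reads in any library of either group. By the test 3 of the 10 were higher and 3 lower in iEZR_CA ESCs. Gata4 was among the lower, with 3.59 ± 0.174 TPM in WT ESCs and 0.629 ± 0.0724 TPM in iEZR_CA ESCs. The 7 trophoblast markers summed to 117 to 122 TPM in WT ESCs and to 76.1 to 80.0 TPM in iEZR_CA ESCs, a sum led by Tfap2c (111 TPM and 67.6 TPM), while by the test 3 of the 6 tested, Gata3, Hand1 and Krt7, were higher in iEZR_CA and 2 lower (median log2 difference 0.44). Hand1 was near the floor, with at most 1 read in any WT ESC library and at most 3 in any iEZR_CA ESC library. In RNA from whole cultures, fewer cells of a type and less RNA per cell cannot be told apart.

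ERM proteins tie the plasma membrane to the actin cortex beneath it. Each has an N-terminal FERM domain, which binds membrane proteins and the lipid PIP2, and a C-terminal tail, which binds actin, and in the closed form the tail covers the FERM domain. PIP2 binding and phosphorylation of a conserved threonine in the tail, by kinases such as LOK and SLK, hold the molecule open. Merlin has a related FERM domain but lacks the actin-binding tail of the others and acts as a growth suppressor, the NHERF scaffolds bridge the FERM domain to channels, transporters and receptors, and CD44 and podoplanin bind it through short basic stretches in their cytoplasmic tails.

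The genes lie on 7 chromosomes of GRCm38, all as protein-coding genes in GENCODE M21. Among the ERM genes and merlin, the annotation places Ezr (ENSMUSG00000052397) at chr17:6738041-6782784 on the minus strand, Rdx (ENSMUSG00000032050) at chr9:52047173-52088735 on the plus strand, Msn (ENSMUSG00000031207) at chrX:96096042-96168552 on the plus strand and Nf2 (ENSMUSG00000009073) at chr11:4765845-4849536 on the minus strand. The scaffold genes are Slc9a3r1 (ENSMUSG00000020733) at chr11:115163341-115181181 on the plus strand and Slc9a3r2 (ENSMUSG00000002504) at chr17:24639286-24650327 on the minus strand, and the kinase genes are Stk10 (ENSMUSG00000020272) at chr11:32533305-32624587 on the plus strand and Slk (ENSMUSG00000025060) at chr19:47579678-47645246 on the plus strand. The membrane protein genes are Cd44 (ENSMUSG00000005087) at chr2:102811141-102901665 on the minus strand and Pdpn (ENSMUSG00000028583) at chr4:143267431-143299564 on the minus strand.

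The regulatory threonine shows how alike the 3 ERM genes are and how merlin differs, so its codon is printed here with 21 bases of coding sequence on either side. Capitals mark the threonine codon. The bases come from GENCODE M21 transcripts on GRCm38, 5′ to 3′ on the coding strand. Ezr lies at chr17:6739342-6739386 on the minus strand in exon 13 of 13, Rdx at chr9:52086396-52086440 on the plus strand in exon 14 of 14, and Msn at chrX:96166551-96166595 on the plus strand in exon 13 of 13. The Nf2 stretch crosses from exon 15 to exon 16 of 16 on the minus strand, between chr11:4768262-4782219.
Ezr: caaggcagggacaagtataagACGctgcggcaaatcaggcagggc
Rdx: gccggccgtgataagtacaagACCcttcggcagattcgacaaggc
Msn: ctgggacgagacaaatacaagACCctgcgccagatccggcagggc
Nf2: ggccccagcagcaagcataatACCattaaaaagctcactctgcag
Counted in codons from the start, the threonine is residue 567 of the 586 in ezrin, 564 of 583 in radixin, 558 of 577 in moesin and, by alignment, 577 of 596 in merlin. Of the 45 bases, 31 in Rdx, 34 in Msn and 20 in Nf2 were the same as in Ezr, and of the 15 residues they encode, 14 in radixin, 14 in moesin and 2 in merlin were the same as in ezrin. Over aligned residues of the whole proteins, ezrin was 76.3% identical to radixin and 73.8% to moesin, radixin and moesin were 81.8% identical, and merlin was 46.6% to 47.6% identical to the 3 ERM proteins.

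Levels are given below as normalised read counts (read counts divided by a library size factor), which compare 1 gene across libraries, and as TPM where genes are set against each other. Differences are log2 fold changes with their standard error (SE), tested with edgeR's quasi-likelihood test over all 18469 genes, with p-values adjusted by Benjamini-Hochberg and called at an adjusted p under 0.05. The SE was worked back from the test, as the size of the log2 fold change divided by the square root of the F statistic. Means are given with the SD over 3 libraries.

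**Figure D1:**
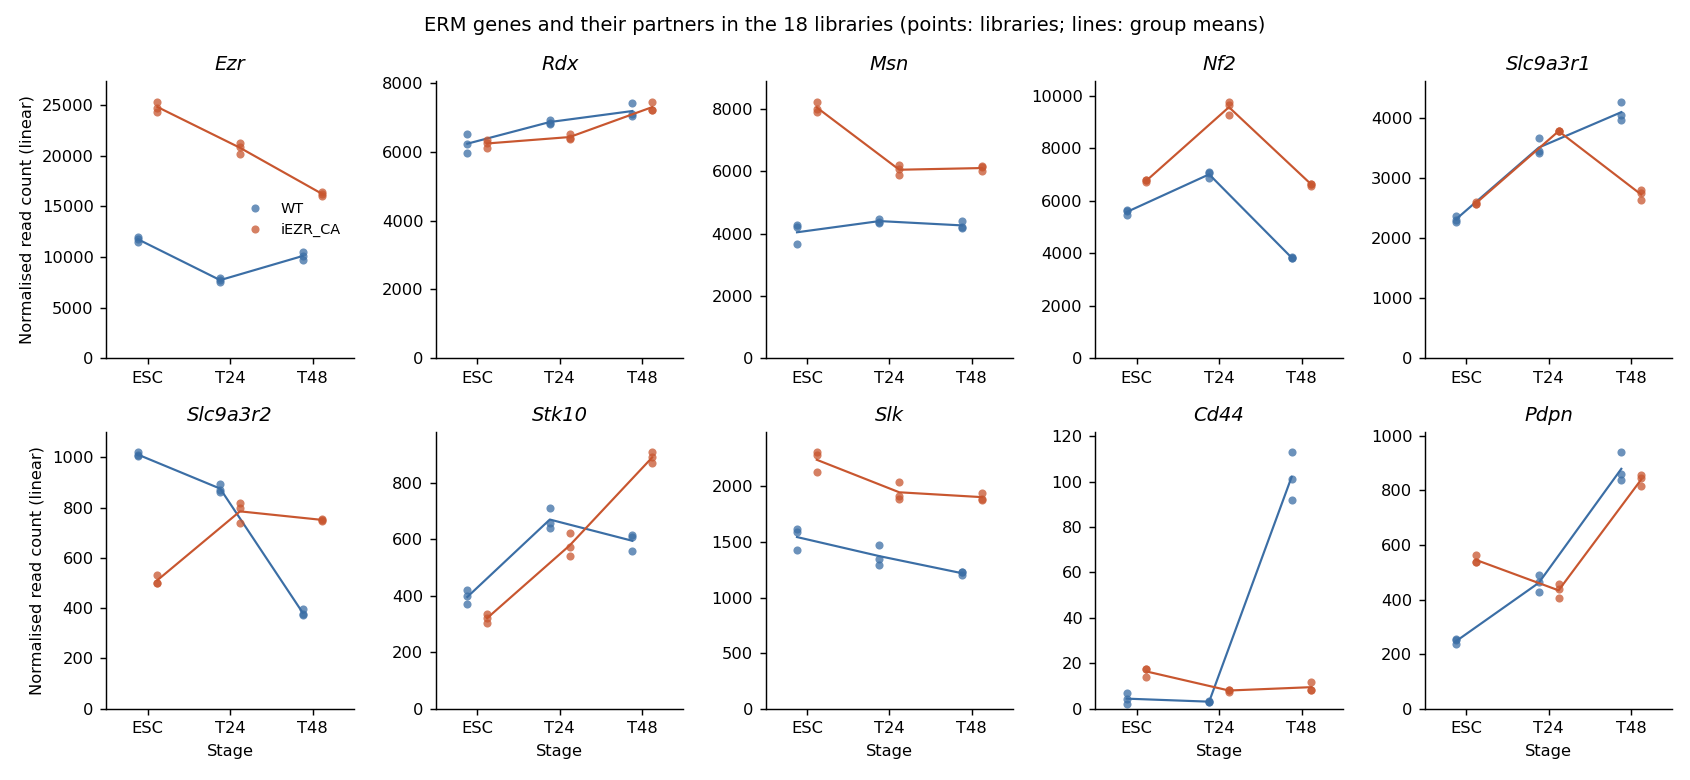
Normalised read counts (linear axes from 0, 1 scale per gene) of the 10 genes at ESC, T24 and T48, with 1 point per library (3 per group, WT blue and iEZR_CA orange) and lines through the group means. The Ezr libraries of iEZR_CA sit above all WT libraries, and Cd44 stands at 92.0 to 113 normalised counts in WT T48 and at most at 17.7 elsewhere. The order of the group means of WT and iEZR_CA turns between stages for Slc9a3r1, Slc9a3r2, Stk10, Cd44 and Pdpn, and by a small margin for Rdx.

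Most of the 10 genes were higher in iEZR_CA than in WT at each stage, and Ezr, Msn, Nf2 and Slk were higher at all 3 stages. In ESCs 7 were higher and 2 lower, against a background of 26.4% of all tested genes higher and 28.1% lower, and 3 of the 10 passed both the test and a factor of 2, against 11.9% of all genes. At T24 6 were higher and 3 lower (background 30.8% and 30.1%), 2 of them past a factor of 2 (background 14.9%). At T48 6 were higher and 2 lower (background 31% and 30.1%), 1 of them past a factor of 2 (background 16.1%). The median log2 difference over the 10 genes was 0.40 in ESCs, 0.28 at T24 and 0.56 at T48, and over all tested genes it was -0.0092, -0.0020 and 0 in the same order. Ezr is in these counts, and it is the gene that was induced.

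**Figure D2:**
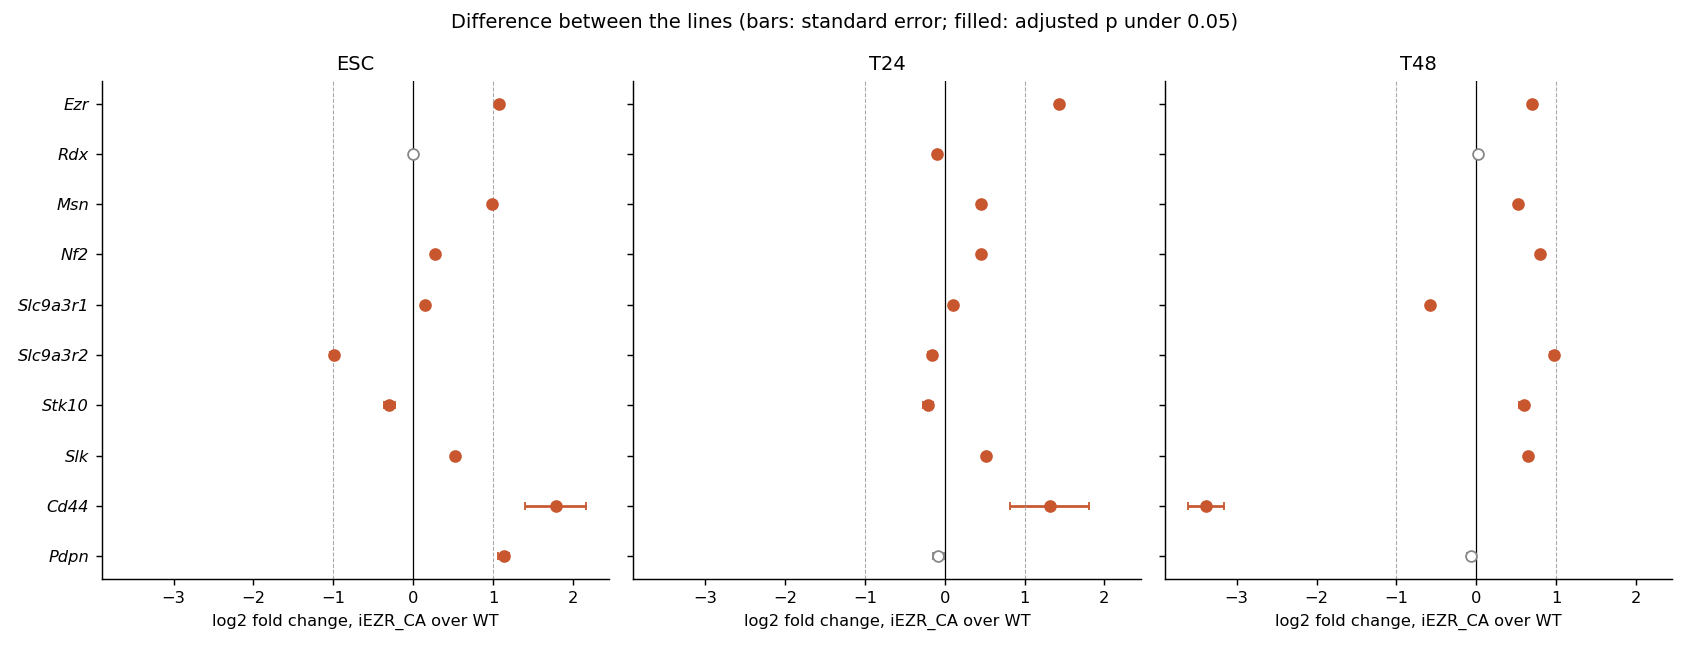
Log2 fold change of iEZR_CA over WT (x axis, the same scale in the 3 panels) for each of the 10 genes at ESC, T24 and T48, with bars for the SE, filled points for an adjusted p under 0.05 and dashed lines at a factor of 2. Slc9a3r2 and Stk10 lie left of 0 in the first 2 panels and right of it at T48, and Cd44 moves from 1.78 in ESCs to -3.39 at T48.

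Time after release moved the genes in both directions in both lines. In WT 6 genes rose and 3 fell from ESC to T24 (background 31.8% and 33.6%), and 5 rose and 4 fell from T24 to T48 (background 32.8% and 32.9%). In iEZR_CA 4 rose and 5 fell over the first 24 h (background 27.1% and 28.9%), and 3 rose and 3 fell over the next 24 h (background 29.6% and 30%). The test of the difference itself, the interaction of line and time, was passed by 5 of the 10 genes from ESC to T24 (Ezr, Msn, Nf2, Slc9a3r2 and Pdpn), against 38.3% of all genes, and by 7 of the 10 from T24 to T48 (Ezr, Rdx, Nf2, Slc9a3r1, Slc9a3r2, Stk10 and Cd44), against 46.2% of all genes. The 2 steps share the T24 libraries, and the interactions use the same libraries as the other comparisons.

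With the libraries scaled to the spike-in counts, no line difference at T48 was lost, but several small ones at the earlier stages no longer passed the test. These were Slc9a3r1 in ESCs and at T24 (adjusted p = 0.227 and 0.260), Stk10 in ESCs and at T24 (adjusted p = 0.178 and 0.467), Slc9a3r2 at T24 (adjusted p = 0.648) and Rdx at T24 (adjusted p = 0.919). The same scaling ended the interaction call of Ezr from ESC to T24 (0.38 ± 0.18, adjusted p = 0.160), of Nf2 at both steps (0.19 ± 0.18 and 0.32 ± 0.18, adjusted p = 0.593 and 0.205) and of Rdx from T24 to T48 (0.10 ± 0.18, adjusted p = 0.782), with fold changes near those of the main scaling given below and larger SEs. Of the calls over time within a line that are described below, it ended the WT changes of Msn and Slc9a3r2 to T24 (adjusted p = 0.0993 and 0.639). It also ended the WT rise of Rdx from T24 to T48 (adjusted p = 0.210). In iEZR_CA it ended the changes of Msn and Pdpn to T24 (adjusted p = 0.0845 and 0.347) and of Ezr at both steps.

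Ezr, the gene the line was built to induce, was higher in iEZR_CA at every stage, by a fold that ran from 1.62 at T48 to 2.70 at T24. The 3 WT ESC libraries had 12017, 11805 and 11467 normalised counts and the 3 iEZR_CA ESC libraries 25358, 24372 and 24728. At T24 WT had 7890.0, 7703 and 7539 and iEZR_CA 21299, 20185 and 20894, and at T48 WT had 9683, 10095 and 10508 and iEZR_CA 16067, 16393 and 16186. Each of the 9 iEZR_CA libraries was above each of the 9 WT libraries. The difference was 1.07 ± 0.025 in ESCs (fold 2.10, adjusted p = 3.43e-45), 1.43 ± 0.026 at T24 (fold 2.70, adjusted p = 2.17e-52), and it was 0.69 ± 0.026 at T48 (fold 1.62, adjusted p = 9.56e-35).

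The courses of Ezr over time went different ways in the 2 lines. In WT it fell from ESC to T24 by 0.62 on the log2 scale (SE 0.026, adjusted p = 3.06e-32) and rose again from T24 to T48 by 0.38 (SE 0.026, adjusted p = 4.39e-21). In iEZR_CA it fell by 0.26 (SE 0.025, adjusted p = 2.37e-14) and then by a further 0.36 (SE 0.025, adjusted p = 3.28e-20). The interaction was 0.36 ± 0.036 over the first 24 h (adjusted p = 2.71e-13) and -0.74 ± 0.036 over the next 24 h (adjusted p = 1.19e-27). The excess of the mean over WT came to 13056 normalised counts for ESCs, 13082 for T24 and 6120 for T48. The share of reads that aligned with low quality was 0.519% to 0.612% in the WT libraries and 0.889% to 1.02% in the iEZR_CA libraries, and its part in the Ezr values was not tested. The spike-in scaling of the libraries left the T24 to T48 rise of WT at 0.51 and the iEZR_CA changes at -0.11 and -0.25, of which the iEZR_CA changes no longer passed the test.

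Of radixin and moesin, the closest relatives of ezrin, moesin RNA was higher in iEZR_CA at all 3 stages and radixin RNA at none by the test. Rdx had 5964 to 6527 normalised counts in WT ESCs and 6133 to 6362 in iEZR_CA ESCs, and the groups overlapped. The difference was -0.0038 ± 0.028 in ESCs (adjusted p = 0.927), -0.094 ± 0.028 at T24 (adjusted p = 0.00292), and it was 0.027 ± 0.028 at T48 (adjusted p = 0.409), so that the T24 value alone passed the test, with a fold of 0.937. With no filter on low counts the T24 value was -0.083 (adjusted p = 0.0897). The Rdx interaction from T24 to T48 lost its call without any 1 of 3 libraries, namely 1 of WT T24, 1 of WT T48 and 1 of iEZR_CA T48 (adjusted p = 0.0524, 0.0615 and 0.0648). The interaction from ESC to T24 did not pass (-0.090 ± 0.040, adjusted p = 0.0668) but passed under 5 of 25 alternatives. The WT rise of Rdx from T24 to T48 (0.063 ± 0.028, adjusted p = 0.0422), which is among the 5 rises counted above, lost its call under 13 of 25 alternatives, 8 of them the removal of a single library. Rdx stayed within 6245 to 7309 normalised counts in all 6 group means.

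Msn was higher in iEZR_CA at each stage, most in ESCs. The WT libraries had 4279.9, 4197 and 3652 normalised counts in ESCs, 4380.0, 4472 and 4357 at T24 and 4184, 4406 and 4203 at T48. The iEZR_CA libraries had 8242, 8001 and 7911 in ESCs, 6198, 6068 and 5889 at T24 and 6126, 6172 and 6021 at T48. No WT library reached the level of any iEZR_CA library. The difference was 0.99 ± 0.037 in ESCs (adjusted p = 1.07e-20), 0.46 ± 0.037 at T24 (adjusted p = 2.49e-12), and it was 0.52 ± 0.037 at T48 (adjusted p = 1.17e-13). The fall between ESC and T24 in iEZR_CA, -0.42 ± 0.036 (adjusted p = 1.56e-11), set against 0.11 ± 0.038 in WT (adjusted p = 0.00945), gave an interaction of -0.53 ± 0.052 (adjusted p = 7.65e-10). The WT change rests on 1 ESC library with 3652 normalised counts, without which it was 0.040 (adjusted p = 0.249). The primitive endoderm markers were also higher in iEZR_CA ESCs (summed TPM above, with 3 of the 10 higher and 3 lower by the test), and their part in the Msn value was not tested. A small RNA gene on the other strand, Gm24718, shares 136 exon bases with Msn, which is 2.15% of the Msn exons.

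Per transcript length, ezrin RNA was the most abundant of the 3 ERM RNAs in all 6 groups, and its share of their sum was larger in iEZR_CA. The summed TPM of Ezr, Rdx and Msn was 799 ± 35.2 in WT ESCs, 659 ± 5.01 at T24 and 782 ± 12.8 at T48, and 1438 ± 15.4, 1287 ± 19.5 and 1108 ± 4.25 in iEZR_CA. The shares of that sum are given with SDs in percentage points. Ezr made up 64.3% ± 0.769 in WT ESCs, 51.8% ± 0.418 at T24 and 58.0% ± 1.22 at T48. In iEZR_CA it made up 74.2% ± 0.405, 72.9% ± 0.655 and 66.0% ± 0.471. Rdx held 24.2% ± 0.281 in WT ESCs and 13.3% ± 0.343 in iEZR_CA ESCs, at nearly the same count, and Msn 11.5% ± 0.595 and 12.5% ± 0.109. The exact two-sided permutation test gave p = 0.1, the smallest that 3 against 3 libraries allow, for the share of Ezr and of Rdx and for the sum at all 3 stages, and for the share of Msn in ESCs and at T24. At T48 the Msn shares were 12.7% ± 0.340 in WT and 12.9% ± 0.0934 in iEZR_CA, with overlapping groups (exact permutation p = 0.7). These shares take each gene at its full exon length. With the length of its longest transcript, Msn stood above Rdx in iEZR_CA, with 18.4% against 12.6% in ESCs and 16.4% against 15.3% at T24, and below it in the other 4 groups. The Ezr value can hold reads of the transgene, and the length of the transgene RNA is not given in the sources used here.

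**Figure D3:**
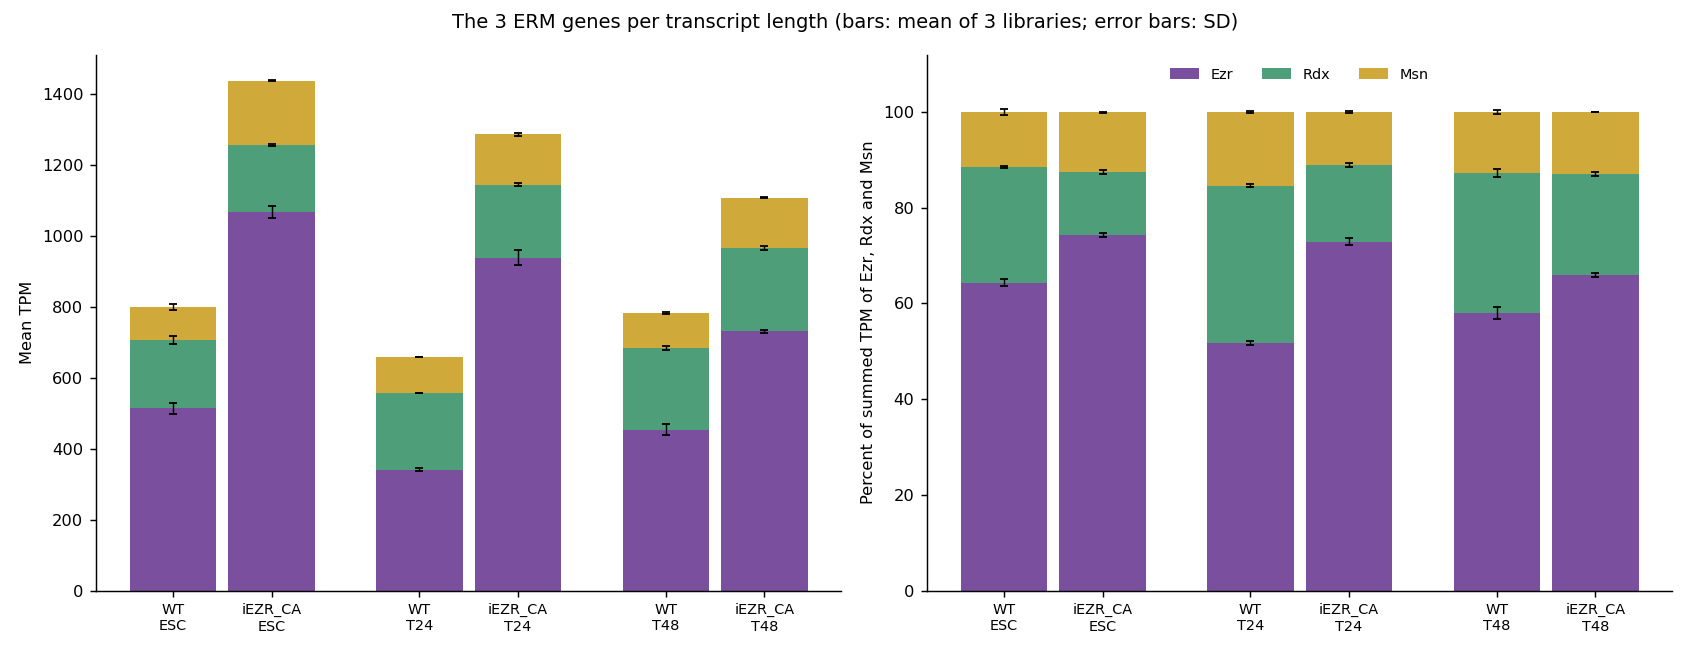
Mean TPM of Ezr, Rdx and Msn stacked (left) and their percent of the summed TPM (right) in the 6 groups, with error bars for the SD over 3 libraries. The left bars reach 799 TPM in WT ESCs and 1438 TPM in iEZR_CA ESCs, and the lowest segment on the right, Ezr, runs from 51.8% in WT T24 to 74.2% in iEZR_CA ESCs.

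Among all 10 genes, with exon-union lengths, Ezr had the highest TPM and Cd44 the lowest in each group. In WT ESCs the order was Ezr at 514 ± 16.7 TPM, Rdx at 193 ± 10.5, Slc9a3r1 at 173 ± 3.55, Nf2 at 117 ± 2.98, Msn at 91.8 ± 8.40, Slc9a3r2 at 54.9 ± 0.589, Slk at 26.8 ± 1.84, Pdpn at 19.6 ± 0.872, Stk10 at 10.97 ± 0.790 and Cd44 at 0.0944 ± 0.0488, and the ranges of neighbours in that order did not overlap. In iEZR_CA ESCs Ezr stood at 1067 ± 17.1 TPM, and Rdx at 191 ± 2.87 and Slc9a3r1 at 190.0 ± 3.94 overlapped as the next in order. Slk and Slc9a3r2 overlapped in WT T48, Nf2 with Rdx and Pdpn with Slk in iEZR_CA T24, and Nf2 with Msn in iEZR_CA T48.

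Merlin RNA rose and fell with time in both lines and was higher in iEZR_CA throughout, by more at each later stage. WT had 5651, 5606 and 5469.8 normalised counts in ESCs, 6860.2, 7102 and 7079 at T24 and 3827, 3831 and 3843 at T48. In iEZR_CA the values were 6815, 6806 and 6706, then 9669, 9791 and 9271, then 6641, 6649 and 6579. At each stage all 3 iEZR_CA libraries were above all 3 WT libraries, and T24 was the highest stage of both lines. The difference was 0.27 ± 0.026 in ESCs (adjusted p = 2.80e-14), 0.45 ± 0.026 at T24 (adjusted p = 1.57e-24), and it was 0.80 ± 0.027 at T48 (adjusted p = 1.18e-36). From T24 to T48 it fell by 0.87 in WT and by 0.53 in iEZR_CA, on the log2 scale, and the interaction was 0.18 ± 0.037 from ESC to T24 (adjusted p = 6.78e-05) and 0.34 ± 0.038 from T24 to T48 (adjusted p = 4.55e-12).

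In WT the 2 NHERF genes took opposite courses, and in iEZR_CA neither kept the WT course. Slc9a3r1, which encodes NHERF1, rose in both lines to T24 (interaction -0.040 ± 0.045, adjusted p = 0.531) and then fell in iEZR_CA alone. WT had 2311, 2275 and 2374 normalised counts in ESCs, 3446, 3671 and 3416 at T24 and 3968, 4056 and 4277 at T48, and iEZR_CA had 2567, 2577 and 2611, then 3781, 3789 and 3782, then 2801, 2751 and 2633. All 3 T48 libraries of iEZR_CA were below all 3 of WT. The difference was 0.15 ± 0.033 in ESCs (adjusted p = 9.62e-05), 0.11 ± 0.031 at T24 (adjusted p = 0.00197), and it was -0.57 ± 0.032 at T48 (adjusted p = 1.49e-25). The change from T24 to T48 was 0.21 ± 0.031 in WT and -0.47 ± 0.031 in iEZR_CA, an interaction of -0.68 ± 0.044 (adjusted p = 1.65e-21).

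Slc9a3r2, which encodes NHERF2, started lower in iEZR_CA and ended higher. In ESCs WT had 1007, 1019.9 and 1006 normalised counts and iEZR_CA 534, 501 and 499.8. At T24 WT had 870.1, 893 and 862 and iEZR_CA had 816, 739 and 799, and at T48 WT had 398, 376 and 373 and iEZR_CA had 749, 756 and 747. The lines did not overlap at any stage, and their order turned between T24 and T48. The difference was -0.99 ± 0.051 in ESCs (adjusted p = 1.05e-26), -0.16 ± 0.049 at T24 (adjusted p = 0.00251), and it was 0.97 ± 0.056 at T48 (adjusted p = 1.14e-24). Without the iEZR_CA T24 library with the lowest level, the T24 value was -0.11 (adjusted p = 0.0735). WT fell at both steps, by 0.22 and 1.19 on the log2 scale (adjusted p = 3.15e-05 and 9.35e-30), while iEZR_CA rose by 0.61 to T24 (adjusted p = 6.31e-16) and then changed by -0.054 ± 0.049 (adjusted p = 0.351). The interaction was 0.83 ± 0.071 (adjusted p = 7.95e-16) and 1.14 ± 0.074 (adjusted p = 1.79e-21).

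Of the kinases LOK and SLK, which phosphorylate the threonine printed above, Stk10 changed its order between the lines with time and Slk was higher in iEZR_CA at all 3 stages. Stk10 (LOK) had 419, 399 and 369.5 normalised counts in WT ESCs, 709.7, 642 and 659 at T24 and 609, 560.3 and 616 at T48, and in iEZR_CA 305, 336 and 322 in ESCs, then 542, 621 and 571, then 869, 909 and 892. The iEZR_CA libraries were the lower in ESCs and at T24 and the higher at T48, with no overlap at any stage. The difference was -0.30 ± 0.071 in ESCs (adjusted p = 2.18e-04), -0.21 ± 0.058 at T24 (adjusted p = 0.00132), and it was 0.60 ± 0.056 at T48 (adjusted p = 6.53e-15). The T24 value was -0.15 without the WT T24 library with the highest level (adjusted p = 0.0584). The interaction from T24 to T48 was 0.81 ± 0.081 (adjusted p = 1.97e-13). Slk (SLK) ran from 1201 to 1614 normalised counts over the 9 WT libraries and from 1880.1 to 2306 over the 9 iEZR_CA libraries, which did not overlap. It was higher in iEZR_CA by 0.53 ± 0.041, 0.52 ± 0.043 and 0.65 ± 0.043 in ESCs, at T24 and at T48 (adjusted p = 2.73e-17, 1.17e-16 and 1.38e-20), and neither interaction passed the test (adjusted p = 0.940 and 0.0683), although that from T24 to T48 passed without 1 WT T24 library or 1 iEZR_CA T24 library (adjusted p = 0.0229 and 0.0338).

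Cd44, whose product is the hyaluronan receptor and a classical ERM anchor, was close to absent except in WT at T48. The WT libraries had 2, 9 and 5 reads in ESCs, 5, 3 and 2 at T24 and 138, 119 and 53 at T48. The iEZR_CA libraries had 16, 21 and 10 reads in ESCs, 6, 10 and 9 at T24 and 14, 11 and 7 at T48. As normalised counts the 3 WT T48 libraries stood at 113, 92.0 and 101 and the 3 iEZR_CA T48 libraries at 11.7, 8.46 and 8.39. In WT T48 too Cd44 had the lowest TPM of the 10 genes, 2.23 ± 0.249. From T24 to T48 the WT level rose by 4.96 on the log2 scale (SE 0.29, adjusted p = 9.28e-25), while in iEZR_CA the change was 0.26 ± 0.38 (adjusted p = 0.577), an interaction of -4.70 ± 0.56 (adjusted p = 8.93e-11). At T48 the line difference was -3.39 ± 0.22 (adjusted p = 1.34e-21), a level 10.5-fold lower in iEZR_CA.

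At the earlier stages, where Cd44 counts were 21 or fewer, the iEZR_CA libraries were the higher, with 1.78 ± 0.38 in ESCs (adjusted p = 5.69e-05) and 1.32 ± 0.50 at T24 (adjusted p = 0.0186). The T24 call was lost without 1 WT T24 library (adjusted p = 0.0605) and with DESeq2's Wald test (adjusted p = 0.0544). The summed level of 7 fibroblast markers was 2.73 to 3.36 TPM in WT T24 and 16.5 to 17.3 TPM in WT T48. In iEZR_CA it was 3.21 to 3.91 TPM at T24 and 10.2 to 12.3 TPM at T48. The iEZR_CA rise was led by Dcn, at 0.0259 ± 0.0449 TPM at T24 and 8.42 ± 0.727 TPM at T48. Of the 5 markers tested, 5 rose in WT from T24 to T48, while 2 rose and 1 fell in iEZR_CA. Between the lines at T48, 4 of these 5 were lower and 1, Dcn, was higher in iEZR_CA. Twist2, one of the untested pair, had at most 1 read in any library. Their part in the Cd44 value was not tested.

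Pdpn, which encodes podoplanin, a membrane glycoprotein whose tail recruits ERM proteins, began higher in iEZR_CA, with no difference past the test at T24 and T48. WT had 254, 253 and 238 normalised counts in ESCs, 464, 428 and 492 at T24 and 836, 939.7 and 860.4 at T48. In iEZR_CA the values were 536, 562 and 538 in ESCs, then 438, 457 and 406, then 844, 857 and 817. The lines were apart in ESCs and overlapped at T24 and T48. The difference was 1.13 ± 0.069 in ESCs (adjusted p = 4.44e-23), -0.078 ± 0.064 at T24 (adjusted p = 0.301), and it was -0.064 ± 0.053 at T48 (adjusted p = 0.299). WT rose by 0.88 and 0.94 on the log2 scale over the 2 steps (adjusted p = 6.03e-18 and 3.97e-23), whereas iEZR_CA first fell by 0.33 (adjusted p = 6.01e-06) and then rose by 0.95 (adjusted p = 2.64e-23). The interaction was -1.21 ± 0.095 over the first 24 h (adjusted p = 1.55e-17) and 0.014 ± 0.083 over the next (adjusted p = 0.914). The part of the primitive endoderm markers, higher in sum in iEZR_CA ESCs, in the Pdpn value was not tested.

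Other genes of the same pathway were followed from 4 lists drawn up by function. Their counts in iEZR_CA against WT stand against the same background as above, 26.4% of all genes higher and 28.1% lower in ESCs, 30.8% and 30.1% at T24, and 31% and 30.1% at T48. Of 13 further membrane proteins that bind ERM proteins, 10 were tested, and in iEZR_CA 2 were higher and 3 lower in ESCs, 3 and 3 at T24, and 3 and 6 at T48, with medians of 0.12, -0.051 and -0.20. The number called in ESCs was 3 in place of 5 with at least 10 counts in every library, and at T48 it was 5 in place of 9 with spike-in scaling. Spn (CD43), a sialomucin that ERM proteins bind, had 32.4 ± 4.65 normalised counts in WT ESCs and 8.27 ± 1.59 in iEZR_CA ESCs, a difference of -1.92 (adjusted p = 3.50e-08), and the difference was -1.55 at T24 and 0.42 at T48 (adjusted p = 1.10e-18 and 0.00175). Prom1 (prominin, a protein of membrane protrusions) reached 1058 ± 32.1 in WT T48 against 557 ± 53.9 in iEZR_CA (difference -0.92, adjusted p = 4.37e-22), after being the higher in iEZR_CA in ESCs and at T24 (differences 0.49 and 1.06, adjusted p = 0.00589 and 4.40e-13). Icam1, an adhesion receptor for leukocytes, had 2404 ± 69.9 normalised counts in WT ESCs and 1485 ± 43.8 in iEZR_CA ESCs (difference -0.70, adjusted p = 1.09e-24).

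All 13 genes of PIP2 synthesis and turnover were tested. In iEZR_CA 2 were higher and 5 lower in ESCs, 8 and 4 at T24, and 10 and 1 at T48, with medians of -0.024, 0.18 and 0.26. With spike-in scaling 1 in place of 7 was called in ESCs and 5 in place of 12 at T24. Of the kinase genes that make PIP2, Pip5k1b and Pip5k1c were higher in iEZR_CA at T24 by 0.41 and 0.39 (adjusted p = 4.33e-06 and 2.81e-14), and Pip5k1a was lower (difference -0.15, adjusted p = 8.05e-04). The phosphatase genes that remove a phosphate from it, Ocrl and Synj1, were higher at T48 by 0.46 and 0.57 (adjusted p = 5.95e-13 and 1.13e-11), and Synj1 was lower in ESCs (difference -0.24, adjusted p = 2.34e-04). Plcb3, which encodes a phospholipase that splits PIP2, had 4008 ± 99.3 normalised counts in WT ESCs and 2393 ± 99.5 in iEZR_CA ESCs (difference -0.75, adjusted p = 5.47e-30), and its order turned by T48, with 1513 ± 84.0 in WT and 2052 ± 74.4 in iEZR_CA (difference 0.44, adjusted p = 1.12e-16).

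The 27 other genes with a FERM domain were all tested, and 14 were higher and 5 lower in iEZR_CA ESCs, 15 and 7 at T24, and 16 and 5 at T48, with medians of 0.091, 0.24 and 0.25. Mylip, which encodes a FERM-domain ubiquitin ligase of the LDL receptor, was the higher in iEZR_CA at all 3 stages, by 0.85, 1.36 and 1.21 (adjusted p = 1.72e-13, 2.79e-21 and 2.67e-17). Frmd6 (willin, which acts with merlin upstream of the Hippo kinases) was higher at T24, with 344 ± 16.1 normalised counts in WT and 716 ± 26.9 in iEZR_CA (difference 1.07, adjusted p = 2.78e-25). Frmd5 was lower in ESCs and at T24 (differences -1.39 and -1.48, adjusted p = 4.53e-13 and 2.90e-25), and Epb41l1, a member of the band 4.1 family, was higher at T48 by 1.19 (adjusted p = 3.38e-25).

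Of 8 other genes for NHERF-like and PDZ scaffolds, 7 were tested, with 3 higher and 4 lower in iEZR_CA ESCs, 3 and 3 at T24, and 2 and 3 at T48, and medians of -0.093, 0.10 and -0.029. With spike-in scaling the number called was 3 in place of 7, 2 in place of 6 and 3 in place of 5. Pdzk1, which encodes NHERF3, had 8.42 ± 3.87 normalised counts in WT ESCs and 67.6 ± 8.50 in iEZR_CA ESCs (difference 2.90, adjusted p = 7.53e-17), and at T48 241 ± 11.2 and 129 ± 7.62 (difference -0.89, adjusted p = 7.50e-11). The junction scaffold genes Magi1 and Magi3 differed in opposite directions at T48 (differences -0.79 and 0.75, adjusted p = 1.45e-23 and 2.01e-17).

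**Figure D4:**
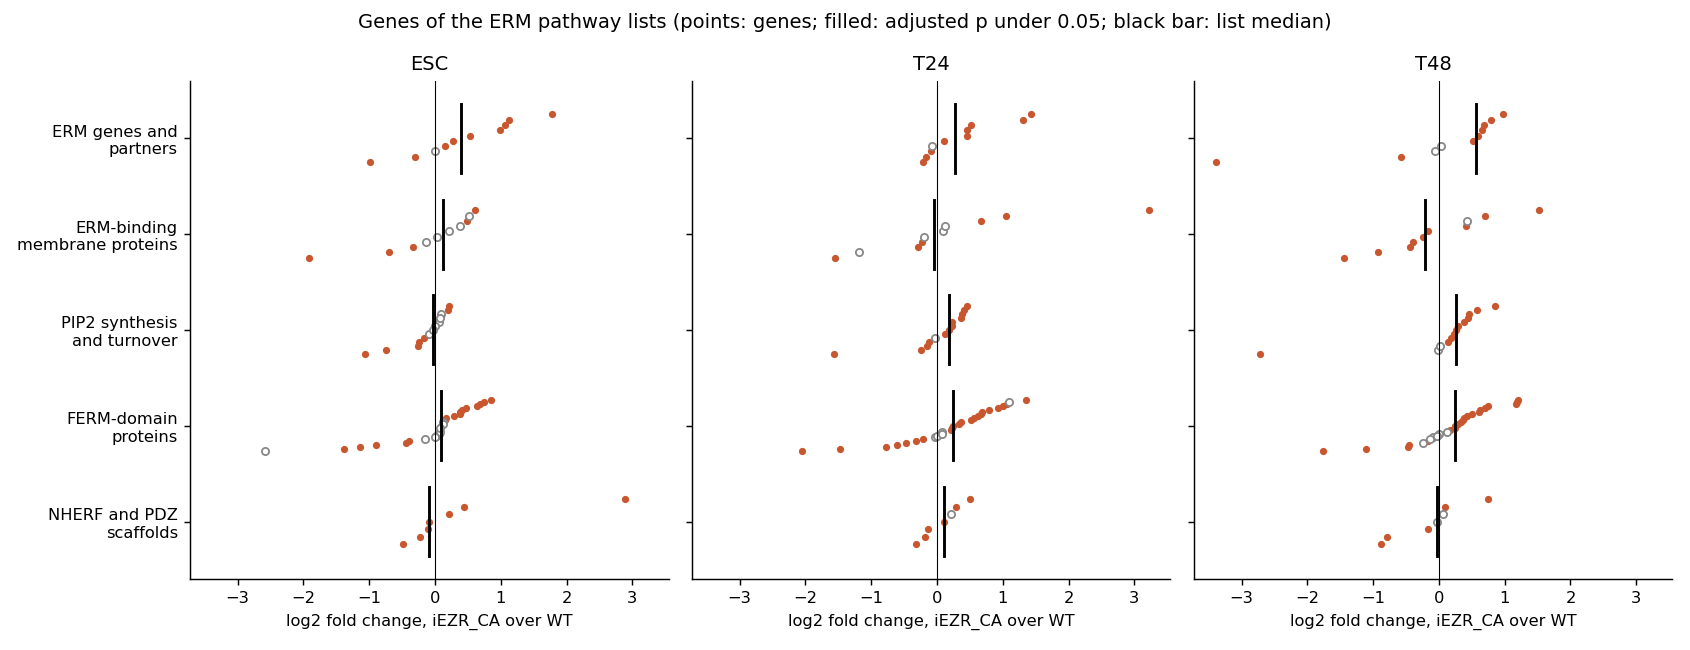
Log2 fold change of iEZR_CA over WT (x axis, the same scale in the 3 panels) for the tested genes of the 10-gene list and of the 4 pathway lists at ESC, T24 and T48, with 1 point per gene, filled where the adjusted p was under 0.05, and a black bar at the list median. The medians of the 10 genes lie at 0.40, 0.28 and 0.56, and each list holds genes on both sides of 0 at every stage.

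The genes whose log2 levels ran most like those of single members were found over all 18 libraries among 12801 genes, as Pearson's r. The libraries share the same 6 groups, so the points are not independent. The most alike of Ezr were Ap2s1 (r = 0.987), Ndufb7 (0.980) and Chp1 (0.979). For Rdx they were Lbr (0.964), Wdr26 (0.957) and Larp4 (0.957), for Msn Pank3 (0.985), 1700013H16Rik (0.984) and Clcn3 (0.964), and for Pdpn Rab15 (0.960), Exoc5 (0.960) and Arhgap18 (0.959). No such genes were sought for Cd44, whose mean level was under the 50 normalised counts set for this comparison.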

How the data were processed

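The authors trimmed paired-end reads with Trim Galore 0.6.5, aligned them to GRCm38/mm10 with GSNAP and counted them per Ensembl gene with HTSeq; the strand setting is not given in the sources used here. The deposited values are raw read counts with 92 spike-ins, and 21.3% to 24.3% of reads fell outside genes and spike-ins. Groups came from the labels. Counts were fitted with edgeR 4.0.16 (R 4.3.3; TMM, filterByExpr, robust quasi-likelihood, 1 mean per group, all 18 libraries, 12 residual degrees of freedom), which was tested on simulated data. Normalised counts used DESeq2 1.42.0 size factors. TPM used exon-union lengths from GENCODE M21, which matched 53706 of 53801 genes. Libraries of 1 group differed by more than sampling noise (chi-square over its degrees of freedom, 1.67 to 3.95).

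The 10 genes and the lists were chosen with earlier results of these data known. Named were the 10 genes, from each pathway list up to 3 genes with the largest line difference per stage among those called with a mean of at least 50 normalised counts, and the 3 genes most alike Ezr, Rdx, Msn and Pdpn. Gata4, Sox7, Hand1, Twist2, Dcn, Lama1, Dab2, Tfap2c, Gata3, Krt7 and Pip5k1a were singled out after their values were seen. Gm24718 was cited after its exon overlap with Msn was seen. One further pathway list and 1 gene of another are not reported here.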

Additional observations from a re-analysis of the deposited data

Results flagged for a closer look

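The genes named below changed differently over time in the 2 lines by the interaction test (edgeR, 3 libraries per group) at the step stated. Values are the log2 change in iEZR_CA minus that in WT. Of all genes 38.3% passed from ESC to T24 and 46.2% from T24 to T48. The share of all genes that passed at either step was not counted, so the 2 steps are not joined here. Spike-in scaling ended the calls of Ezr from ESC to T24, Nf2 at both steps and Rdx. From ESC to T24 the difference was 0.36 for Ezr, -0.53 for Msn, 0.18 for Nf2, 0.83 for Slc9a3r2 and -1.21 for Pdpn. From T24 to T48 it was -0.74 for Ezr, 0.12 for Rdx, 0.34 for Nf2, -0.68 for Slc9a3r1, 1.14 for Slc9a3r2, 0.81 for Stk10 and -4.70 for Cd44. The smallest of these in size, that of Rdx, had an adjusted p of 0.00885, and without single libraries it ran from 0.093 to 0.13, with an adjusted p of up to 0.0648.

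Reads that aligned with low quality, which enter no gene's count, made up 0.958% ± 0.042 (SD, n = 9 libraries) of the reads in iEZR_CA and 0.564% ± 0.031 (SD, n = 9 libraries) in WT. All 9 iEZR_CA libraries were above all 9 WT libraries.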

How the results depend on the processing

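Alternatives were DESeq2 size factors within edgeR, scaling to the spike-in counts, no filter beyond a total above 0, at least 10 counts in every library (which leaves Cd44 out), the contrast's own libraries alone, leaving out both libraries whose names end in 9 (plate column 9, if the names are wells), DESeq2's Wald test, and leaving out each of the 18 libraries. The number of the 10 genes past the threshold stayed within 1.5 times the main number in 221 of 225 cases, and of 2238 log2 fold changes of single genes 2152 kept their direction and side of the threshold.

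Spike-in scaling moved the median of all genes by 0.098 to 0.15 (log2) over time and by 0.040 to 0.071 between lines, and the number of the 10 genes called was then 5 for iEZR_CA against WT at T24, 5 for WT from ESC to T24, 4 for iEZR_CA from ESC to T24 and 3 for the interaction from ESC to T24. In iEZR_CA against WT ESCs the number past a factor of 2 was 3 to 4 without single libraries. Msn and Slc9a3r2, at 0.99 and -0.99 with all libraries, lay just short of it there. The number past a factor of 2 at T24 was 1 with at least 10 counts, with the contrast's own libraries and with DESeq2's Wald test, and 1 to 2 without single libraries, where Cd44 is the gene lost. At T48 it was 2 with spike-in scaling and with no filter, 0 with at least 10 counts, and 1 to 2 without single libraries. The cause of these moves was not tested.

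Signs that turned belong mostly to values near 0. The Rdx difference in ESCs was 0.0042 with DESeq2 size factors, 0.049 with spike-in scaling, 0.0087 with at least 10 counts, 0.0073 with the contrast's own libraries, 0.0041 with DESeq2's Wald test, and -0.035 to 0.024 without single libraries. With spike-in scaling the change from T24 to T48 was 0.077 for Msn in WT, and 0.046 for Slc9a3r2 and 0.069 for Slk in iEZR_CA. For Msn in iEZR_CA it was -0.0046 to 0.031 without single libraries. The Slk interaction from ESC to T24 was 0.012 with no filter, 0.018 without plate column 9 and -0.045 to 0.051 without single libraries. The Pdpn interaction from T24 to T48 was -0.0013 with spike-in scaling, -0.0051 with at least 10 counts, -0.016 without plate column 9 and -0.042 to 0.065 without single libraries.

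With the length of the longest transcript, the difference in ERM share (percentage points, iEZR_CA minus WT) was 8.98 for Ezr and -10.4 for Rdx in ESCs, and -15.2 for Rdx and -5.86 for Msn at T24. The Msn difference at T48 ran from -0.00616 to 0.312 without single libraries. No paired analysis was run, because the labels give no replicate numbers to pair by. Depth limits Cd44, with 21 reads or fewer in 15 of 18 libraries.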
